A study of Mus musculus with 10 samples.

Results

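The genes described here encode the nuclear pore complex and the soluble machinery that carries proteins and RNA through it. Members were taken by symbol: every nucleoporin named Nup followed by a digit, the pore proteins Pom121, Ndc1, Tpr, Rae1, Seh1l, Sec13, Aaas and Ranbp2, the numbered importins, transportins and exportins (Kpna, Kpnb, Ipo, Tnpo and Xpo), and Ran with its activating protein Rangap1. A locus counted when it carried a usable test in both the basal and the suprabasal table, which left 49 loci of the 10583 with a usable test in both. Of these, 43 carried 1 symbol and 6 were merged by the authors with a neighbouring gene (Nup35 with Dusp19, Nup62 with Il4i1, Ipo11 with Lrrc70, Ipo4 with Tm9sf1, Xpo4 with Lats2, and Nup188 with Lrrc8a and Phyhd1), so the level of a merged locus may include transcripts of the neighbour. All 49 reached at least 5 FPKM (a level in sequenced fragments, scaled by transcript length and by library size) in some group and 46 did so in every group. A further Tnpo1 locus had a usable test in basal cells only, at 0.396 and 2.24 FPKM in wild type and bitransgenic mice.

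The study sequenced RNA of keratinocytes sorted by flow cytometry from the skin of FVB/N mice at postnatal day 4. The 4 groups were basal cells of wild type mice (3 samples), basal cells of bitransgenic mice (2 samples), suprabasal cells of wild type mice (3 samples) and suprabasal cells of bitransgenic mice (2 samples). The bitransgenic mice are labelled as a model of Hutchinson-Gilford progeria syndrome (HGPS), and the title of the series names progerin. The labels used here name neither the transgenes nor the promoter that drives them, and do not say whether a sample is 1 animal or a pool.

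Progerin is a truncated lamin A that keeps its lipid anchor and stays in the nuclear lamina, the meshwork under the inner nuclear membrane. Nuclear pores are held in that lamina, and the basket protein Nup153 binds lamins. Each pore is a ring-shaped channel: an outer and an inner ring form the scaffold, transmembrane proteins fix it in the envelope, proteins rich in phenylalanine-glycine repeats fill the channel, and filaments extend into the cytoplasm and a basket into the nucleus. Importins bind cargo in the cytoplasm and release it when they meet Ran loaded with GTP in the nucleus, whereas exportins bind cargo together with Ran-GTP. Rangap1 on the cytoplasmic side makes Ran hydrolyse its GTP, which keeps the gradient.

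The files held 1 level per group and no per-sample value, so the spread between mice, the overlap of groups and the depth of each library could not be seen. Standard errors given here were worked back from the authors' p-values and rest on their model of variation. The sorted layers matched their names for the most part: 10 of 10 markers of basal keratinocytes were lower in suprabasal than in basal cells in both genotypes, and 11 of 12 markers of suprabasal keratinocytes were higher in suprabasal cells of wild type mice and 9 of 12 in bitransgenic mice. Melanocyte transcripts were mostly in the suprabasal gate. The summed level of 3 tested melanocyte markers of 8 listed (Dct, Tyrp1 and Pmel) was 8.38 and 12.9 FPKM in wild type and bitransgenic basal cells and 1684 and 3123 FPKM in suprabasal cells, and that of 2 fibroblast markers of 7 (Dcn and Vim) was 12.0, 11.6, 324 and 500.2 FPKM in the same order. The fibroblast sum was higher in suprabasal cells through Vim, at 2.32, 6.24, 316 and 492 FPKM. Dcn stood at 9.65, 5.31, 8.67 and 8.31 FPKM in that order. Of 7 leukocyte markers only Cd74 was tested, at summed levels of 5.02 to 7.14 FPKM, and of 5 endothelial markers none was. Sex-linked transcripts also differed between the genotypes: the Xist locus stood at 0.258 and 108 FPKM in wild type and bitransgenic basal cells and at 0.236 and 103 FPKM in suprabasal cells, while Ddx3y, a Y-linked gene, was present in all 4 groups. No member lies on a sex chromosome, and the part of sex mix and of other cell types in the results was not tested.

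The first question was whether the bitransgenic genotype altered transcripts of the pore and its transport factors, as the title links progerin to misplaced nuclear envelope proteins. None of the 49 members passed the test in either layer. In the authors' deposited table for basal cells, 0 of 49 members had a q-value under 0.05, against a background of 1.65% of all tested loci, and 1 member (Ipo7) had an unadjusted p-value under 0.05, against 7.68%. In their table for suprabasal cells, 0 members had a q-value under 0.05 (background 0.471%) and 0 had an unadjusted p-value under 0.05 (background 7.11%). The lowest q-value of a member in the authors' deposited table was 0.240 in basal cells and 0.755 in suprabasal cells.

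Before centring, the members were spread around no difference. On the log2(FPKM + 1) scale the median difference, bitransgenic minus wild type, was 0.0037 in basal cells (interquartile range -0.120 to 0.237), beside -0.11 over all loci (-0.451 to 0.180). In suprabasal cells the median was -0.03 (-0.292 to 0.298), beside -0.08 (-0.406 to 0.232). In basal cells 25 members were higher in bitransgenic mice and 24 lower, and in suprabasal cells 24 were higher and 25 lower. Over all loci 39.7% were higher in bitransgenic basal cells and 43.4% in bitransgenic suprabasal cells. Because the median of all loci lay at -0.11 in basal cells, centring turned the basal split to 35 higher and 14 lower, and the suprabasal split to 27 and 22. Differences past 1.5-fold were seen for 4 members in basal cells (Ipo13, Nup210, Nup54 and Ipo7) and 6 in suprabasal cells (Ran, Kpna2, Nup54, Nup37, Nup85 and Nup43), that is, 4 and 6 of 49, beside 25.9% and 28.1% of all loci that reached 5 FPKM. The member counts did not use that minimum. In suprabasal cells 47 of the 49 members reached 5 FPKM, and Kpna2 did not.

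The test had limited reach for a single gene. The standard error worked back from the authors' p-values was 0.36 at the median of the members in basal cells (0.26 to 0.78) and 0.40 in suprabasal cells (0.33 to 0.82), on the log2 scale. The 95% interval of the fold change lay within 2-fold in either direction for 30 of 49 members in basal cells (beside 36.7% of all loci that reached 5 FPKM) and for 16 in suprabasal cells (beside 23.7%). For the other members a 2-fold difference lay inside the interval. Among all loci that reached 5 FPKM, the smallest log2 fold change that the authors' deposited table called was 0.81 in size in basal cells and 1.31 in suprabasal cells.

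**Figure D1:**
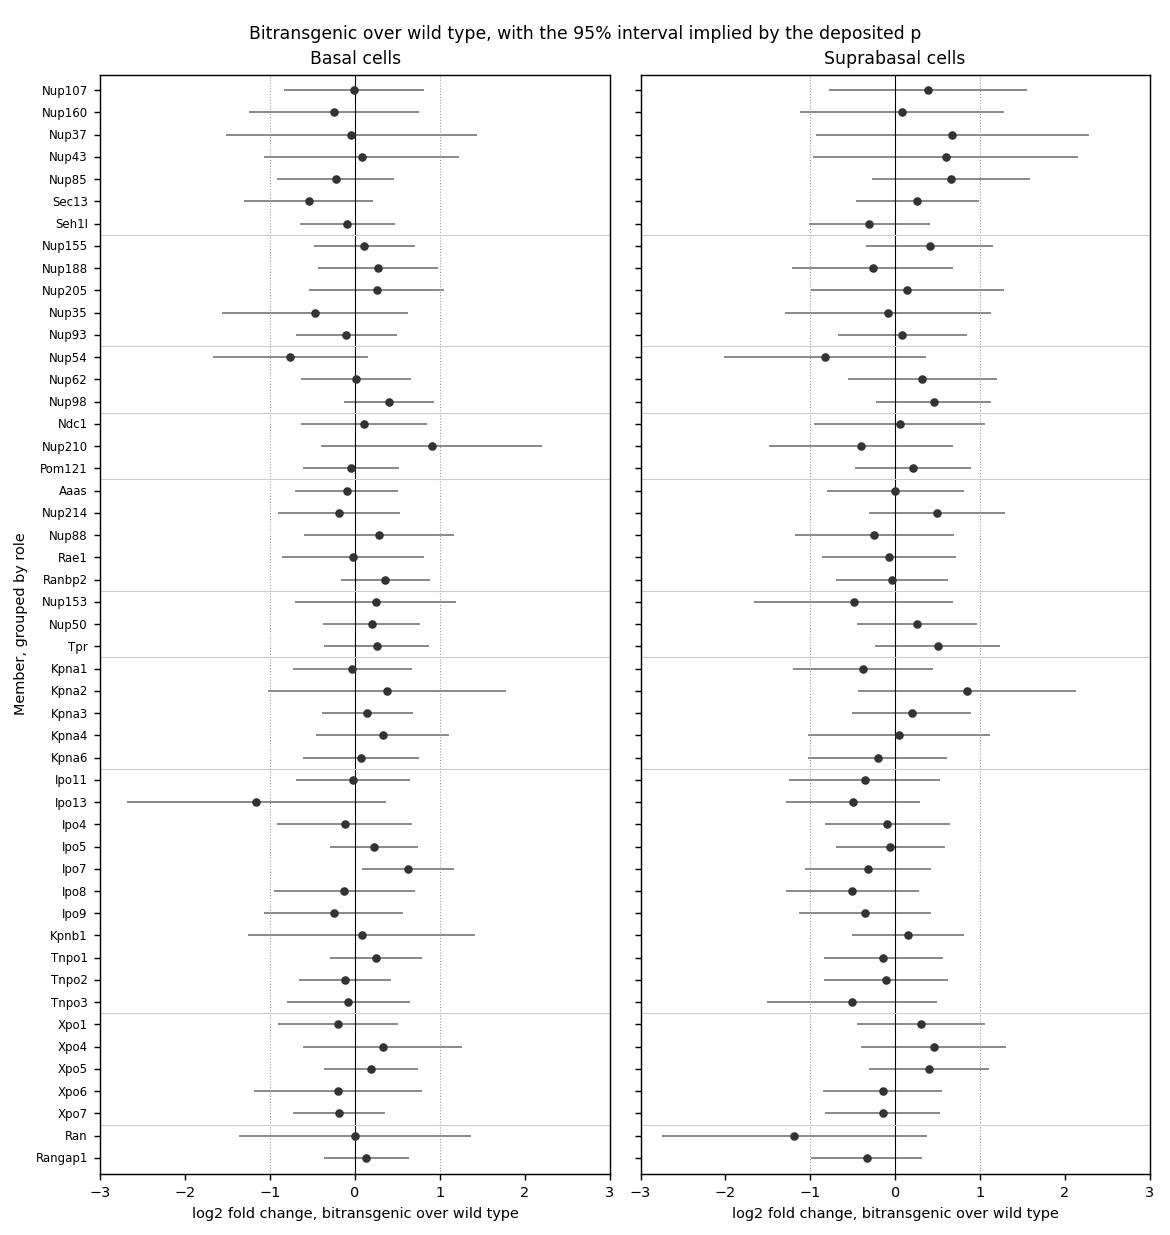
The log2 fold change of bitransgenic over wild type for each of the 49 members, grouped by role, in basal and suprabasal cells; points are the authors' deposited values and bars the 95% intervals worked back from their p-values. In basal cells only the bar of Ipo7 leaves 0 out, and in suprabasal cells every bar crosses it.

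Levels are ordered by the place of the protein in the pore, with wild type before bitransgenic in each pair. The outer ring, built from copies of the Y-shaped complex, had 7 members, of which 6 were lower in bitransgenic basal cells and 6 were higher in bitransgenic suprabasal cells, none past the test. Over all loci 39.7% were higher in bitransgenic basal cells and 43.4% in bitransgenic suprabasal cells. After centring on expressed loci 3 of 7 were lower in basal cells, and 6 were higher in suprabasal cells. Nup107, a stem subunit of the complex, stood at 20.8 and 20.7 FPKM in basal and at 10.3 and 13.4 FPKM in suprabasal cells. Nup160, which forms an arm, stood at 36.7 and 31.0 FPKM in basal and at 17.8 and 18.9 FPKM in suprabasal cells. Nup85, in the other arm, stood at 27.8 and 23.7 FPKM in basal and at 16.8 and 26.5 FPKM in suprabasal cells, a pattern in which the genotypes were ordered oppositely in the layers. Its fold change in the authors' deposited table was -0.23 ± 0.35 (log2, standard error) in basal and 0.66 ± 0.47 in suprabasal cells. Sec13, which also coats secretory vesicles, stood at 35.0 and 24.0 FPKM in basal and at 26.1 and 31.2 FPKM in suprabasal cells, again lower with the transgenes in basal and higher in suprabasal cells. Seh1l, which binds Nup85, stood at 35.1 and 33.0 FPKM in basal and at 31.1 and 25.2 FPKM in suprabasal cells. The small peripheral subunits Nup37 and Nup43 were the scarcest of the ring in suprabasal cells. Nup37 stood at 7.53 and 7.31 FPKM in basal and at 3.31 and 5.27 FPKM in suprabasal cells. Nup43 stood at 17.0 and 17.97 FPKM in basal and at 5.81 and 8.77 FPKM in suprabasal cells. Both were near equal between genotypes in basal cells and over 1.5-fold higher with the transgenes in suprabasal cells, without passing the test.

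The inner ring, which lines the channel and joins it to the membrane, had 5 members with no common direction. Nup155, which touches the membrane, stood at 14.3 and 15.4 FPKM in basal and at 8.29 and 11.0 FPKM in suprabasal cells. Nup205, a large scaffold protein, stood at 24.6 and 29.3 FPKM in basal and at 28.7 and 31.7 FPKM in suprabasal cells. Both were higher in bitransgenic cells of each layer. Nup93, which links the ring to the channel proteins, stood at 21.4 and 19.9 FPKM in basal and at 12.6 and 13.4 FPKM in suprabasal cells. Nup188, a relative of Nup205 measured here with its neighbours, stood at 37.4 and 45.1 FPKM in basal and at 49.4 and 41.1 FPKM in suprabasal cells. Nup35, a membrane-bending subunit, was the scarcest, at 9.36 and 6.75 FPKM in basal and 4.72 and 4.46 FPKM in suprabasal cells. Of the channel and repeat proteins, Nup54 was the member lower with the transgenes by more than 1.5-fold in both layers. It stood at 15.4 and 9.05 FPKM in basal and at 12.9 and 7.28 FPKM in suprabasal cells, and the authors' deposited table gives -0.76 ± 0.47 (q = 0.466) in basal and -0.82 ± 0.61 (q = 0.794) in suprabasal cells. Its partner in the same channel complex, Nup62, stood at 25.2 and 25.4 FPKM in basal and at 27.0 and 33.7 FPKM in suprabasal cells, near equal between genotypes in basal cells and higher with the transgenes in suprabasal cells. Nup98, a mobile repeat protein that also acts in mRNA export, stood at 27.4 and 36.0 FPKM in basal and at 20.5 and 28.1 FPKM in suprabasal cells and was higher with the transgenes in both layers.

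The 3 transmembrane members anchor the pore. Ndc1 stood at 26.6 and 28.7 FPKM in basal and at 13.0 and 13.5 FPKM in suprabasal cells. Pom121 stood at 23.1 and 22.3 FPKM in basal and at 19.0 and 22.0 FPKM in suprabasal cells. Both were nearly equal between genotypes. Nup210, whose level is known to vary among cell types, stood at 5.77 and 10.8 FPKM in basal and at 7.34 and 5.54 FPKM in suprabasal cells. Its 2 differences pointed in opposite directions, 0.90 ± 0.66 in basal and -0.40 ± 0.55 in suprabasal cells in the authors' deposited table, and both intervals included 0.

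On the cytoplasmic face the 5 members differed between genotypes by -0.18 to 0.35 in basal and by -0.23 to 0.47 in suprabasal cells on the log2(FPKM + 1) scale, Nup214 being the highest of them in suprabasal cells. Nup214, the platform for the export factors that remodel mRNA, stood at 26.0 and 22.8 FPKM in basal and at 18.8 and 26.5 FPKM in suprabasal cells. Its partner Nup88 stood at 25.2 and 30.5 FPKM in basal and at 24.0 and 20.2 FPKM in suprabasal cells. Ranbp2, the large filament protein that holds Rangap1 at the pore, stood at 31.4 and 40.2 FPKM in basal and at 25.3 and 24.7 FPKM in suprabasal cells. Reads shared with related sequences would make that value uncertain. How the authors' counting split such reads is not given in the sources used here. Rae1, an mRNA export factor that binds Nup98, stood at 22.7 and 22.3 FPKM in basal and at 21.5 and 20.5 FPKM in suprabasal cells. Aaas, the protein mutated in triple A syndrome, stood at 21.0 and 19.6 FPKM in basal and at 15.0 and 15.0 FPKM in suprabasal cells. In both genes the genotypes differed little in either layer.

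The basket had 3 members, all higher in bitransgenic basal cells (beside 39.7% of all loci) and none past the test. Nup153, the lamin-binding protein, stood at 48.97 and 57.9 FPKM in basal and at 38.8 and 27.6 FPKM in suprabasal cells, the reverse order in the suprabasal layer. Tpr, which forms the basket's strands, stood at 53.5 and 63.9 FPKM in basal and at 36.0 and 51.0 FPKM in suprabasal cells, higher with the transgenes in both layers. Nup50, a cofactor that helps release imported cargo, stood at 10.6 and 12.2 FPKM in basal and at 10.8 and 12.8 FPKM in suprabasal cells. In the authors' deposited table Nup153 had a log2 fold change of 0.24 ± 0.48 in basal and -0.49 ± 0.60 in suprabasal cells.

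**Figure D2:**
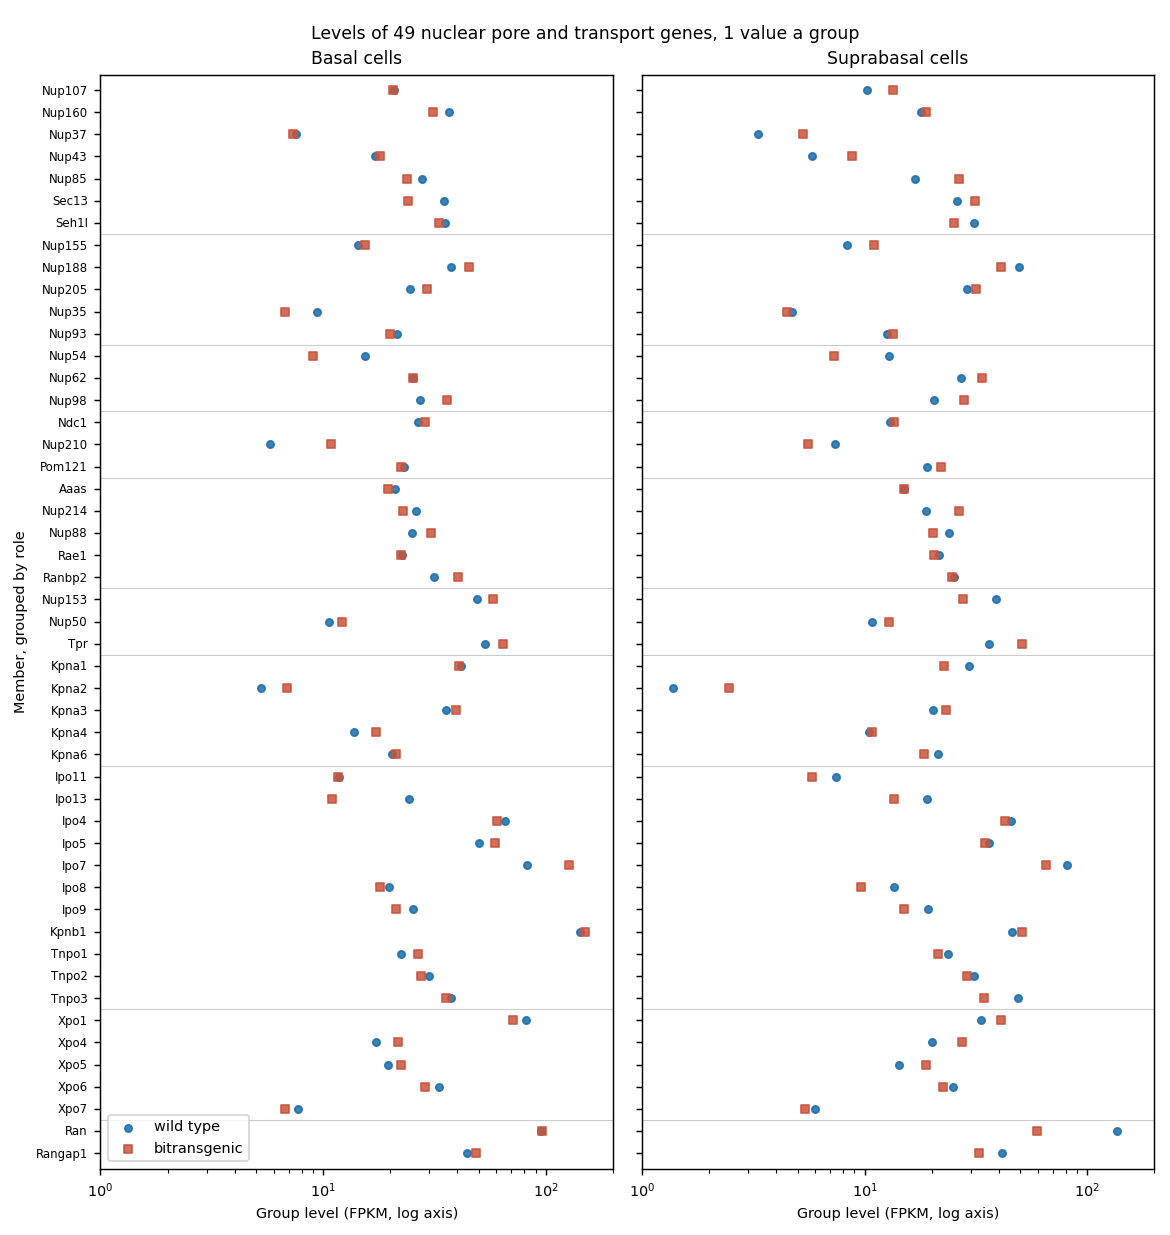
Levels of the 49 members in FPKM on a log axis, basal cells on the left and suprabasal cells on the right, 1 value a group, with circles for wild type and squares for bitransgenic mice. In wild type basal cells the members run from 5.26 FPKM for Kpna2 to 142 for Kpnb1, and the 2 genotypes lie close together in both layers for genes such as Aaas, Ndc1 and Rae1.

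Importin alpha proteins recognise the classical nuclear localization signal and hand the cargo to importin beta. Kpna2, an adaptor that many dividing cells express strongly, was the scarcest member of all in wild type cells of both layers, at 5.26 and 6.85 FPKM in basal and 1.37 and 2.47 FPKM in suprabasal cells. A processed copy of Kpna2 makes its value uncertain in the same way. The other adaptors were more abundant. Kpna1 stood at 41.7 and 40.8 FPKM in basal and at 29.5 and 22.7 FPKM in suprabasal cells. Kpna3 stood at 35.5 and 39.3 FPKM in basal and at 20.3 and 23.2 FPKM in suprabasal cells. It was higher in basal cells of both genotypes, as were Kpna1, Kpna2 and Kpna4. Kpna4, a close relative of Kpna3, stood at 13.8 and 17.3 FPKM in basal and at 10.5 and 10.8 FPKM in suprabasal cells. Kpna6, a relative of Kpna1, stood at 20.3 and 21.3 FPKM in basal and at 21.3 and 18.5 FPKM in suprabasal cells. In Kpna1, Kpna3, Kpna4 and Kpna6 the genotypes differed by at most 0.37 in size on the log2(FPKM + 1) scale.

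Importin beta, Kpnb1, the receptor shared by those adaptors, was the most abundant member in basal cells, at 142 and 149 FPKM in basal and 45.9 and 50.9 FPKM in suprabasal cells. Its wild type basal level was 3.08 times its wild type suprabasal level, and its bitransgenic basal level 2.93 times. The related receptors bind cargo without an adaptor. Of the 11 members of this family, 10 were lower with the transgenes in suprabasal cells (9 after centring), and 7 were lower in basal cells (5 after centring). Over all loci 43.4% were higher with the transgenes in suprabasal and 39.7% in basal cells. No member of the family passed the test. Ipo7, which carries ribosomal proteins and histones, stood at 82.5 and 127 FPKM in basal and at 81.4 and 65.2 FPKM in suprabasal cells. Its basal difference was the only one of a member with an unadjusted p under 0.05: 0.62 ± 0.28 in the authors' deposited table (p = 0.0251, q = 0.240), and -0.32 ± 0.38 in suprabasal cells (q = 0.902). Ipo13, which both imports and exports cargo, stood at 24.4 and 10.9 FPKM in basal and at 19.1 and 13.6 FPKM in suprabasal cells; its basal value in the authors' deposited table was -1.16 ± 0.78, with q = 0.466. Ipo5, a carrier of ribosomal proteins and histones, stood at 50.3 and 58.8 FPKM in basal and at 36.1 and 34.7 FPKM in suprabasal cells. Ipo4, measured with Tm9sf1, stood at 65.5 and 60.2 FPKM in basal and at 45.6 and 42.8 FPKM in suprabasal cells. Both were higher in basal than in suprabasal cells of each genotype. Ipo8, a close relative of Ipo7, stood at 19.7 and 18.1 FPKM in basal and at 13.6 and 9.58 FPKM in suprabasal cells. Ipo9 stood at 25.3 and 21.3 FPKM in basal and at 19.2 and 15.0 FPKM in suprabasal cells. Ipo11, measured with Lrrc70, stood at 11.8 and 11.6 FPKM in basal and at 7.40 and 5.77 FPKM in suprabasal cells. These 3 were lower in bitransgenic cells of each layer. In basal cells the differences of Ipo8, Ipo9 and Ipo11 were -0.12, -0.24 and -0.02 on the log2(FPKM + 1) scale, beside a median of -0.11 over all loci. On the log2(FPKM + 1) scale Ipo8 differed between genotypes by -0.46 in suprabasal cells. That was close to the -0.47 of Ipo13, and Tnpo3 had the largest fall of the family, -0.50. Among the transportins, Tnpo1, the carrier of hnRNP proteins, stood at 22.4 and 26.6 FPKM in basal and at 23.6 and 21.4 FPKM in suprabasal cells. Tnpo2, its close relative, stood at 29.7 and 27.5 FPKM in basal and at 31.1 and 28.8 FPKM in suprabasal cells. Tnpo3, which imports splicing factors rich in serine and arginine, stood at 37.6 and 35.6 FPKM in basal and at 49.03 and 34.5 FPKM in suprabasal cells, with its highest level in wild type suprabasal cells.

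Exportins carry proteins and RNA out of the nucleus. Xpo1, the receptor for leucine-rich export signals, stood at 81.5 and 71.0 FPKM in basal and at 33.2 and 41.0 FPKM in suprabasal cells; the layers differed more than the genotypes did. Xpo4, an exporter of translation factor eIF5A measured with its neighbour Lats2, stood at 17.2 and 21.6 FPKM in basal and at 20.0 and 27.4 FPKM in suprabasal cells. Xpo5, which exports precursor miRNAs, stood at 19.5 and 22.3 FPKM in basal and at 14.2 and 18.8 FPKM in suprabasal cells. Both were higher in bitransgenic cells of each layer. Xpo6, which exports actin, stood at 33.1 and 28.8 FPKM in basal and at 24.9 and 22.5 FPKM in suprabasal cells. Xpo7 stood at 7.69 and 6.73 FPKM in basal and at 5.995 and 5.42 FPKM in suprabasal cells. Xpo7 was the scarcest exportin in every group.

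Ran itself had near equal levels in basal cells and its highest level in wild type suprabasal cells, at 95.5 and 95.7 FPKM in basal and 136 and 59.5 FPKM in suprabasal cells. Its suprabasal difference, -1.19 ± 0.80 in the authors' deposited table (95% interval -2.75 to 0.37, q = 0.755), was the largest in size of any member in either layer and did not pass the test. A processed copy of Ran exists in the mouse genome, so the share of reads that belongs to it is uncertain. Rangap1 stood at 44.3 and 48.6 FPKM in basal and at 41.3 and 32.7 FPKM in suprabasal cells, likewise lowest in bitransgenic suprabasal cells.

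Sequences at the start sites are shown for the members on which the description of the layers turns. They are those whose layers differed by more than 2-fold in either genotype (Kpnb1, Kpna2, Xpo1, Nup160, Ndc1 and Nup153; Nup43, the remaining one, has no entry) and Ran, the member with the highest level in wild type suprabasal cells. They come from RefSeq on GRCm38.p6 (the mm10 build), 250 bases before to 50 after the annotated start, in the direction of the gene. Capitals mark matches on either strand to CCAAT, the box bound by NF-Y, to TTTGAA, the cell cycle homology region, which reads TTCAAA on the other strand, to GCATGCGC, the core of the NRF1 site, or to TATAAA, the TATA box, which reads TTTATA on the other strand. On the minus strand, the Kpnb1 window is chr11:97187843-97188142, that of Kpna2 chr11:106999476-106999775 and that of Nup153 chr13:46727800-46728099. On the plus strand, the Xpo1 window is chr11:23255791-23256090, that of Nup160 chr2:90676965-90677264, that of Ndc1 chr4:107367797-107368096 and that of Ran chr5:129019906-129020205. The deposited Ndc1 locus begins at base 107367784, so the Ndc1 window lies inside the measured locus. The deposited Nup153 locus ends at base 46728066, so most of the Nup153 window lies inside the measured locus too. For Kpnb1, Kpna2, Xpo1 and Ran, more than the last 50 bases of the window lie inside the measured locus.
Kpnb1: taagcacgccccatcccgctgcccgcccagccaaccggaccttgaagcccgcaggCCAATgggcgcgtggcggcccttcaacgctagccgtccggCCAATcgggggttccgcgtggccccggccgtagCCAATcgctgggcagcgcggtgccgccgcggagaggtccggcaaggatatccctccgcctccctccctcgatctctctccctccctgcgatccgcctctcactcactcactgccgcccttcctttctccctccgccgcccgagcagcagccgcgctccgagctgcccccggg
Kpna2: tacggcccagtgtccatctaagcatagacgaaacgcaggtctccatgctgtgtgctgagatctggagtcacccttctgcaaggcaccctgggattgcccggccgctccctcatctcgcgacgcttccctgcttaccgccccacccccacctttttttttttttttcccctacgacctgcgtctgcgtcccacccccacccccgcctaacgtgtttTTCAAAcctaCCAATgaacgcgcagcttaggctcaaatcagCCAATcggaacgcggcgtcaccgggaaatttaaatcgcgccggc
Xpo1: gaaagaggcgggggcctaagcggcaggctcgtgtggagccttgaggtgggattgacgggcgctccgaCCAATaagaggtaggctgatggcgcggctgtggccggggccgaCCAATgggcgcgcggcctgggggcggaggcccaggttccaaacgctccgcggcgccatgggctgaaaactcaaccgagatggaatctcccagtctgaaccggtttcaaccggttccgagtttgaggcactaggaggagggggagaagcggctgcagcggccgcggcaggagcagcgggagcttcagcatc
Nup160: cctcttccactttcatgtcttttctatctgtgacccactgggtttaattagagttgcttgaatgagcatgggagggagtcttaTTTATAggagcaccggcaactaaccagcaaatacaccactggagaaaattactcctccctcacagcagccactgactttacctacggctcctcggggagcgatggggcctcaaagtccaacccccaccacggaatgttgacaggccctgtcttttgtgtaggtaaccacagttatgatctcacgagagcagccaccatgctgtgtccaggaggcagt
Ndc1: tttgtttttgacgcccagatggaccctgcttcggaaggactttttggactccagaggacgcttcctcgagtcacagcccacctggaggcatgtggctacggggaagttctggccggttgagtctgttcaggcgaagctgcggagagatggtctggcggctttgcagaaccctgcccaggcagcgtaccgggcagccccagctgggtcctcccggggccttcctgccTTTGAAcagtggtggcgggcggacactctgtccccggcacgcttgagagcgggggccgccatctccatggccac
Nup153: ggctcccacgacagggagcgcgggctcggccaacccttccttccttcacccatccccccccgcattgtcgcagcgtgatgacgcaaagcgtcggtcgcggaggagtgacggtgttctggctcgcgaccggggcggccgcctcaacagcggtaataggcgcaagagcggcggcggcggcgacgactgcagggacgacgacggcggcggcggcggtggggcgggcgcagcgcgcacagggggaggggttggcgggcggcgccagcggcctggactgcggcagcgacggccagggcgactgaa
Ran: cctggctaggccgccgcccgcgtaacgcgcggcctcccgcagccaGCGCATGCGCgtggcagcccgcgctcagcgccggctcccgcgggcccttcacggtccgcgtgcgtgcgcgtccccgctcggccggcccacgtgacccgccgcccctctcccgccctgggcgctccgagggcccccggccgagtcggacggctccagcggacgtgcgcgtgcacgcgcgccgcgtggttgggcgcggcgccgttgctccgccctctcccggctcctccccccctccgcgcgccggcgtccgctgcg
The Kpnb1 window holds 3 CCAAT matches, that of Xpo1 2, and that of Kpna2 2 CCAAT matches with TTTGAA on the other strand, written TTCAAA, just before them. The Nup160 window holds TATAAA on the other strand, that of Ndc1 TTTGAA, and that of Nup153 none of the words searched, so CCAAT is in 3 of these 6 windows. The Ran window holds GCATGCGC on both strands, in overlapping copies.

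RefSeq windows were found for 40 of the 49 member genes (47 windows, some genes having more than 1 start); Seh1l, Nup43, Kpna6, Nup35, Nup85, Xpo4, Kpna1, Kpna3 and Xpo7 had none. CCAAT was in 22 of 47 windows (46.8%) beside 37.4% of all 32851 windows of the same length, and 11 member windows (23.4%) held at least 2 matches, beside 11.7%. GCATGCGC was in 10.6% of member windows beside 2.71%, TTTGAA in 25.5% beside 17.9%, TTTCCCGC in 2.13% beside 1.07%, TTTGGCGC in 0% beside 0.514%, and TATAAA in 10.6% beside 13.6%, each searched on both strands. Member windows were richer in G and C, with a median of 64% beside 52.7% and 27 CpG dinucleotides beside 7, which affects how often any of these words is met. The median wild type layer difference was -0.45 for the 19 genes with CCAAT and -0.30 for the 21 without, and in bitransgenic mice -0.45 and -0.48, so the order of these 2 groups of genes differed between the genotypes. The division by CCAAT was chosen after the values were seen.

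The layers were then set side by side within each genotype. Those tables were normalized separately and hold 1 value a group, so the values are a description with no test, and a lower level in bulk RNA cannot tell fewer cells of a type from less RNA per cell. Most members were lower in suprabasal cells: 38 of 49 in wild type mice, where 52.8% of all loci were lower, and 40 of 49 in bitransgenic mice, where 51.6% were. The median of the members was -0.40 in wild type (interquartile range -0.69 to -0.07) and -0.45 in bitransgenic mice (-0.74 to -0.13), suprabasal minus basal on the log2(FPKM + 1) scale, beside -0.03 and -0.02 over all loci. Expressed as a fold, the median member was 1.32 times as high in basal as in suprabasal cells of wild type mice, and 1.37 times in bitransgenic mice. In both genotypes together 34 of 49 were lower in suprabasal cells, beside 37.0% of all loci, and 5 were higher (Nup205, Nup62, Nup50, Tnpo2 and Xpo4).

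**Figure D3:**
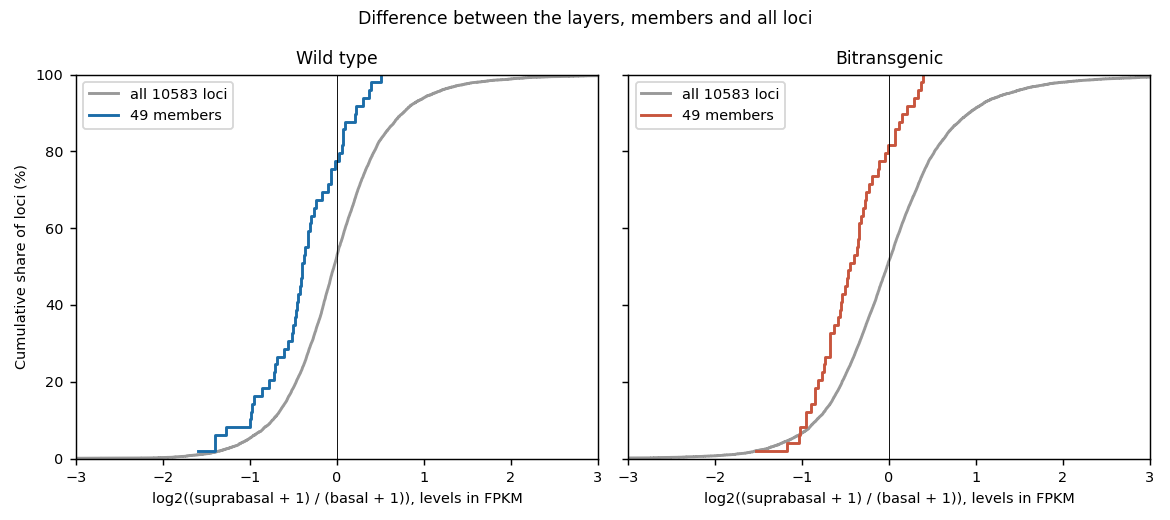
Cumulative share of loci, in percent, by the difference between the layers (suprabasal over basal, log2 of FPKM + 1), in wild type on the left and bitransgenic mice on the right, for the 49 members (coloured) and all 10583 loci (grey). The member line lies to the left of the grey line, with medians of -0.40 and -0.45 beside -0.03 and -0.02.

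Few of these differences were large. Differences past 2-fold lower in suprabasal cells were found for 5 of 49 members in wild type mice (background 5.34%) and 4 of 49 in bitransgenic mice (background 6.7%), and past 2-fold higher for 0 in wild type (6.06%) and 0 in bitransgenic mice (8.73%). In wild type mice they were Kpnb1 (-1.60), Nup43 (-1.40), Kpna2 (-1.40), Xpo1 (-1.27) and Nup160 (-1.003). In bitransgenic mice they were Kpnb1 (-1.53), Kpna2 (-1.18), Nup153 (-1.04) and Ndc1 (-1.03), so Kpnb1 and Kpna2 were past 2-fold in both. Wild type Nup160 sits at the threshold. By role, 7 of 7 outer ring members were lower in wild type suprabasal cells (median -0.95) and 5 of 7 in bitransgenic ones (median -0.41), whereas the importin beta family had 8 of 11 (median -0.38) and 9 of 11 (median -0.48). The cytoplasmic face had 5 of 5 (median -0.30) and 4 of 5 (median -0.36), so a uniform direction in wild type mice was not particular to the outer ring. Across the 49 members the layer difference in wild type mice and that in bitransgenic mice had a Pearson r of 0.532 and a Spearman rho of 0.487, beside 0.560 and 0.524 over all loci; the points share their libraries and genes are not independent replicates.

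**Figure D4:**
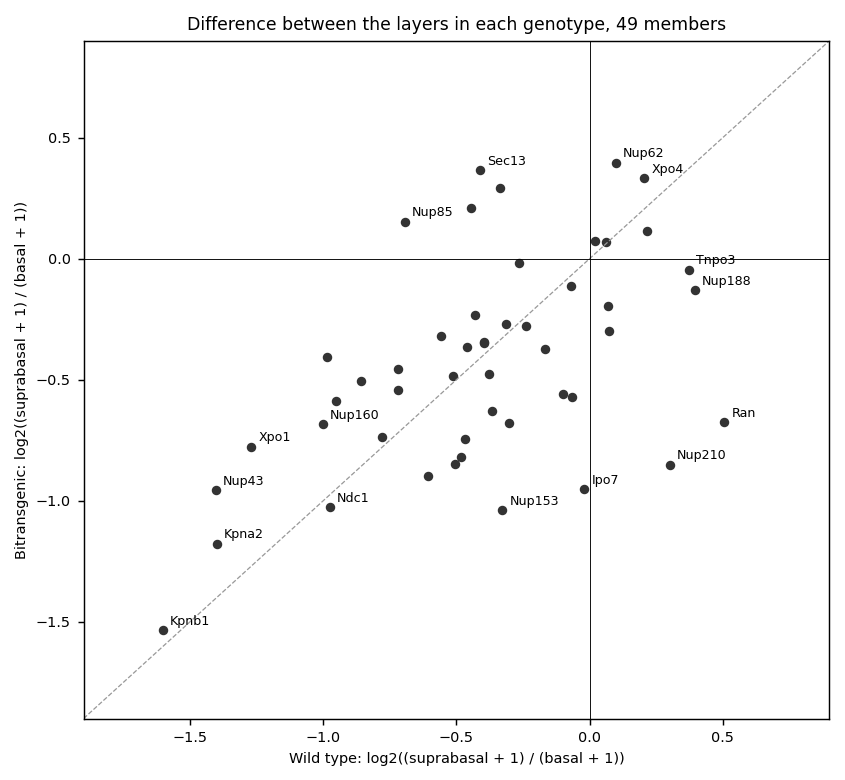
The difference between the layers (suprabasal over basal, log2 of FPKM + 1) in wild type mice against that in bitransgenic mice, 1 point for each of the 49 members. Most points lie in the lower left, with Kpnb1 lowest in both genotypes, while Ran is the highest on the wild type axis and below 0 on the bitransgenic axis.

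In wild type mice 11 members were higher in suprabasal cells, and in bitransgenic mice 9. Ran was the highest in wild type mice, at 0.50, and stood at -0.68 in bitransgenic mice. Of the others that were higher in wild type suprabasal cells, 5 were also higher in bitransgenic ones (Nup205, Xpo4, Nup62, Tnpo2 and Nup50) and 5 were lower there (Nup188, Tnpo3, Nup210, Tnpo1 and Kpna6). Among the latter Nup188 had a wild type difference of 0.39, Tnpo3 of 0.37 and Nup210 of 0.30. Whether the effect of genotype differed between the layers was tested as the difference of the 2 log2 fold changes over its standard error, adjusted by Benjamini-Hochberg over 10583 loci. No member passed (background 0.0378%). Before adjustment the 95% interval left out 0 for 1 member (background 3.08%), Ipo7, with a suprabasal minus basal difference of -0.94 ± 0.47 (-1.86 to -0.02). The values for Nup210 and Ran were -1.31 ± 0.86 and -1.19 ± 1.06, with intervals of -3.001 to 0.38 and -3.27 to 0.88. Its standard error assumes separate animals in each layer, whereas 3 wild type and 1 bitransgenic sample name stems occur in both.

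Cell cycle transcripts followed the same order of layers. All 24 listed proliferation genes were lower in suprabasal than in basal cells in both genotypes, with a median of -1.03 in wild type and -1.02 in bitransgenic mice, and their summed level was 902 and 1022 FPKM in basal and 423 and 450.1 FPKM in suprabasal cells. Their part in the lower member levels was not tested. In that list 1 gene rose with the transgenes in basal cells, Top2a, the topoisomerase of dividing cells, from 83.2 to 196 FPKM. Its log2 fold change in the authors' deposited table was 1.23, with q = 0.00858. Its p-value was the smallest that the authors' test gave, so the standard error worked back from it, 0.30, is an upper limit. No gene of that list passed in suprabasal cells. The largest differences among the rest did not pass the test. Ccne1, a cyclin of the G1/S transition, stood at 5.08 and 8.13 FPKM in basal and at 1.82 and 6.23 FPKM in suprabasal cells. Ccne2, its relative, stood at 17.8 and 16.3 FPKM in basal and at 4.65 and 15.9 FPKM in suprabasal cells. Cyclin E binds and activates Cdk2. Bub1, a spindle checkpoint kinase, stood at 26.7 and 17.8 FPKM in basal and at 5.52 and 5.05 FPKM in suprabasal cells. Ccnb1, a mitotic cyclin, stood at 18.6 and 13.3 FPKM in basal and at 1.99 and 6.39 FPKM in suprabasal cells. The other cyclins of the list were lower with the transgenes in suprabasal cells. Ccnb2 stood at 29.1 and 30.6 FPKM in basal and at 21.3 and 9.85 FPKM in suprabasal cells. Ccna2 stood at 49.5 and 55.7 FPKM in basal and at 25.1 and 13.9 FPKM in suprabasal cells. Over the 24 genes the median genotype difference was 0.085 in basal and 0.095 in suprabasal cells on the log2(FPKM + 1) scale.

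None of the wider transport genes passed the test either. Of 17 further pore and transport loci outside the rule, 0 had a q-value under 0.05 in the authors' deposited table and 1 in each layer had an unadjusted p under 0.05, with median differences of -0.04 in basal and -0.06 in suprabasal cells. Rangrf, a nuclear protein that binds Ran, stood at 4.95 and 1.19 FPKM in basal and at 1.56 and 5.67 FPKM in suprabasal cells, with an adjusted p of 0.687 for the difference between the layers. Snupn, the import adaptor of spliceosomal snRNPs, stood at 3.05 and 7.56 FPKM in basal and at 4.30 and 4.20 FPKM in suprabasal cells. Nupl2, a nucleoporin of the cytoplasmic face, stood at 4.01 and 2.07 FPKM in basal and at 4.25 and 1.38 FPKM in suprabasal cells. All 3 of these genes stayed under 10 FPKM in every group. Ncbp2, a subunit of the nuclear cap-binding complex, stood at 37.3 and 34.8 FPKM in basal and at 33.5 and 19.3 FPKM in suprabasal cells. Of 23 loci for mRNA export, 0 were called in either layer, 0 in basal and 1 in suprabasal cells had an unadjusted p under 0.05 in the authors' deposited table, and the medians were -0.0027 and 0.02. Thoc6, a subunit of the THO complex that packages nascent mRNA, stood at 17.7 and 5.31 FPKM in basal and at 10.0 and 10.9 FPKM in suprabasal cells. Thoc1, another subunit, stood at 10.7 and 15.8 FPKM in basal and at 7.97 and 8.85 FPKM in suprabasal cells. The genotypes were ordered oppositely in basal cells for these subunits of 1 complex. Ddx39, a helicase of mRNA export, stood at 41.3 and 64.6 FPKM in basal and at 31.1 and 41.6 FPKM in suprabasal cells. Its relative Ddx39b stood at 136 and 130.3 FPKM in basal and at 233 and 134 FPKM in suprabasal cells. The first was higher with the transgenes in both layers, the other lower in both. Gle1, which activates the export helicase at the cytoplasmic face, stood at 15.1 and 13.1 FPKM in basal and at 15.3 and 10.1 FPKM in suprabasal cells. Eny2, of the TREX-2 export complex, stood at 21.9 and 21.6 FPKM in basal and at 21.3 and 14.9 FPKM in suprabasal cells. None of the genes named from these lists, Top2a apart, passed the test.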

How the data were processed

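RNA of sorted keratinocytes was sequenced with strand-specific libraries, per the labels' protocols, in 10 samples of 4 groups. Reads were processed with TopHat and Cufflinks on mm10, per the submitters' processing notes; versions and parameters are not given in the sources used here. The authors deposited 2 tables, 1 a layer, that give 1 FPKM value for each group, a log2 fold change of bitransgenic over wild type, a test score, and a p-value and q-value; the header does not name the unit, and FPKM is taken from the tools named. The deposited log2 fold changes equal the log2 ratio of the 2 deposited levels. No counts or per-sample values were analysed here, so depth is unknown. Of 11316 basal and 11490 suprabasal loci, 26 in each table lacked a usable test.

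The authors' test at q under 0.05 was the main result. Standard errors were the log2 fold change divided by the normal quantile of the p-value, and 95% intervals came from them. The difference between the layers was a z-test with Benjamini-Hochberg adjustment over 10583 loci, tested on simulated data. The simulated layers were drawn independently, so the simulation did not check whether the layers are independent in the data. Between layers, log2(FPKM + 1) differences were described. All members were named by role. Of each pathway list, the called genes and the 3 with the largest difference in each layer were named, with the remaining cyclins of the proliferation list. Of marker lists, up to 4 abundant genes were named. One further pathway list is not reported here. Members and lists were chosen with earlier results of these data known. Alternatives changed the pseudocount, centring, filter, fold threshold and adjustment. The 10 samples are labelled as separate, but nothing says that they came from separate animals, so the p-values may reflect technical spread. Python 3.11.15, pandas 2.3.3 and scipy 1.17.1 were used.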

Additional observations from a re-analysis of the deposited data

How the results depend on the processing

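No paired analysis was possible because the tables give 1 value per group, and for the same reason no replicate could be left out. No member was called under any alternative run (adjusting anew over the analysed loci, centring on expressed loci, a minimum of 5 FPKM, or single-symbol loci), and the lowest adjusted p of a member stayed at 0.240 or above in basal and 0.755 or above in suprabasal cells. Over all loci, adjusting anew gave 63 calls in basal and 47 in suprabasal cells, and centring 41 and 37, in place of 186 and 54. The median difference between genotypes moved to 0.11 in basal cells on centring, and in suprabasal cells it turned to 0.047 on centring and to 0.0033 with single-symbol loci; the cause was not tested. The number of members past the fold threshold between the layers, in either direction, was 5 in wild type (10.2%, beside 11.4% of all loci). It moved to 14 at 1.5-fold (28.6% beside 29.2%), 8 with no pseudocount (16.3% beside 14.4%) and 3 with a pseudocount of 5 (6.12% beside 5.50%). In bitransgenic mice it was 4 (8.16% beside 15.4%) and moved to 18 at 1.5-fold (36.7% beside 35.9%) and to 1 with a pseudocount of 5 (2.04% beside 7.89%), which lowers the differences of scarce genes by construction. The bitransgenic median between the layers was -0.33 with a pseudocount of 5. Of the alternatives, 34 values stayed within the limits set for the main value. Without counts, no limit from sequencing depth could be given.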
